A study of Mus musculus with 6 samples.

Results

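Receptors that bind antibodies or lipids on phagocytes, the short adaptors that signal for them and the kinases that the adaptors recruit were followed in denervated muscle of mice fed maslinic acid (MA). The 8 genes listed were the Fc receptors Fcgr1, Fcgr2b and Fcgr3, the adaptors Fcer1g and Tyrobp, the receptor Trem2 and the kinases Syk and Lyn. Probe sets were taken where their only gene symbol in the platform's annotation was 1 of the 8. There were 12 of 45037 probe sets, and they covered 7 of the 8 genes, out of 17097 genes that could be followed by name. No probe set used here named Lyn alone, and Lyn was not analysed here.

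The RNA came from gastrocnemius muscle of male ICR mice, an outbred stock, that were 7 weeks old when purchased. They were acclimated for 1 week before the diets began. Feed of the AIN-93G type held 0.27% MA for the MA group and no MA for controls. It was given from 1 week before both sciatic nerves were severed until day 14 after surgery. Each group had 3 arrays, and all 6 arrays were of denervated muscle, so that the labels separate the groups by diet, and muscle with an intact nerve was not analysed here. The sources used here do not say whether each array held the RNA of its own mouse, and the p-values then measure only the spread between these arrays, which may be technical.

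Fc receptors bind the constant part of antibodies and let macrophages, neutrophils and other cells take up what the antibodies coat. The activating receptors Fcgr1 and Fcgr3 signal through Fcer1g, and Trem2, which binds lipids and apolipoproteins, through Tyrobp. Both adaptors carry a tyrosine motif known as the ITAM. Kinases of the Src family such as Lyn phosphorylate it, and the kinase Syk then docks there. Fcgr2b is the inhibitory Fc receptor, whose own tyrosine motif, the ITIM, recruits phosphatases that dampen the signal. Denervated muscle holds macrophages, which carry all of these molecules, beside its fibers.

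Values are log2 RMA values, in which a difference of 1 is a 2-fold difference, and a gene is described by its brightest probe set. The difference is that of the MA group minus the control group, fitted with limma for every probe set. The words rose and fell are kept for genes with a p-value under 0.05 after Benjamini-Hochberg adjustment across the 45037 probe sets. Fibers dominated the RNA as labelled, with Acta1, the skeletal muscle actin, at 12.62 and 12.49 in the MA and control groups. Array medians lay between 4.27 and 4.28. The nonspecific-binding controls of the array reached 3.95 and this was taken as the background, leaving out the control set made of G and C only, which stood at 7.24. Of all probe sets 40.5% lay at or under 3.95. Bacterial and phage transcripts added to every sample as hybridization controls read higher in MA arrays for 18 of 18 probe sets (median difference 0.17), and centring the arrays on them shifted the median difference of all probe sets to -0.17.

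The activating Fc receptors and both ITAM adaptors were lower in the MA group, while the inhibitory receptor Fcgr2b fell by 0.13, or by 0.30 centred on the hybridization controls, Trem2 was slightly higher at 1 of its probe sets and Syk did not pass the test. The members were chosen with earlier results of these data known, so the counts below describe them and are no independent support. Of the 7 genes measured, 5 fell, against 23% of all genes, 1 rose, against 24.7%, and 1 did not pass. Centred on the hybridization controls, 6 were lower, against 77.5% of all genes, and 0 higher, against 6.36%. In all, 6 of the 7 passed in either direction, against 47.8% of all genes. At the thresholds of the study's methods, a fold over 1.2 with an unadjusted p under 0.05, 4 of the 7 were lower, against 6.87% of all genes, and 0 were higher, against 5.92%. At a fitted fold over 1.5, 3 of the 7 were lower, against 1.53%, and of these Fcgr1 has only a bound of 1.48-fold, leaving Fcgr3 and Fcer1g. The median difference of the 7 was -0.54, beside 0.01 for all genes. MA and control arrays were fully apart for 6 of the 7 genes, against 58.6% of all genes, and for 5 of them the MA arrays were the lower ones, against 27.8%. Of the 12 probe sets, 6 fell, against 21.4% of all probe sets, and the same 6 had every MA array below every control array, against 26.4%. For each of these 6 the two-sided exact permutation test of 3 arrays against 3 gave p = 0.1, the smallest it can give.

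**Figure D1:**
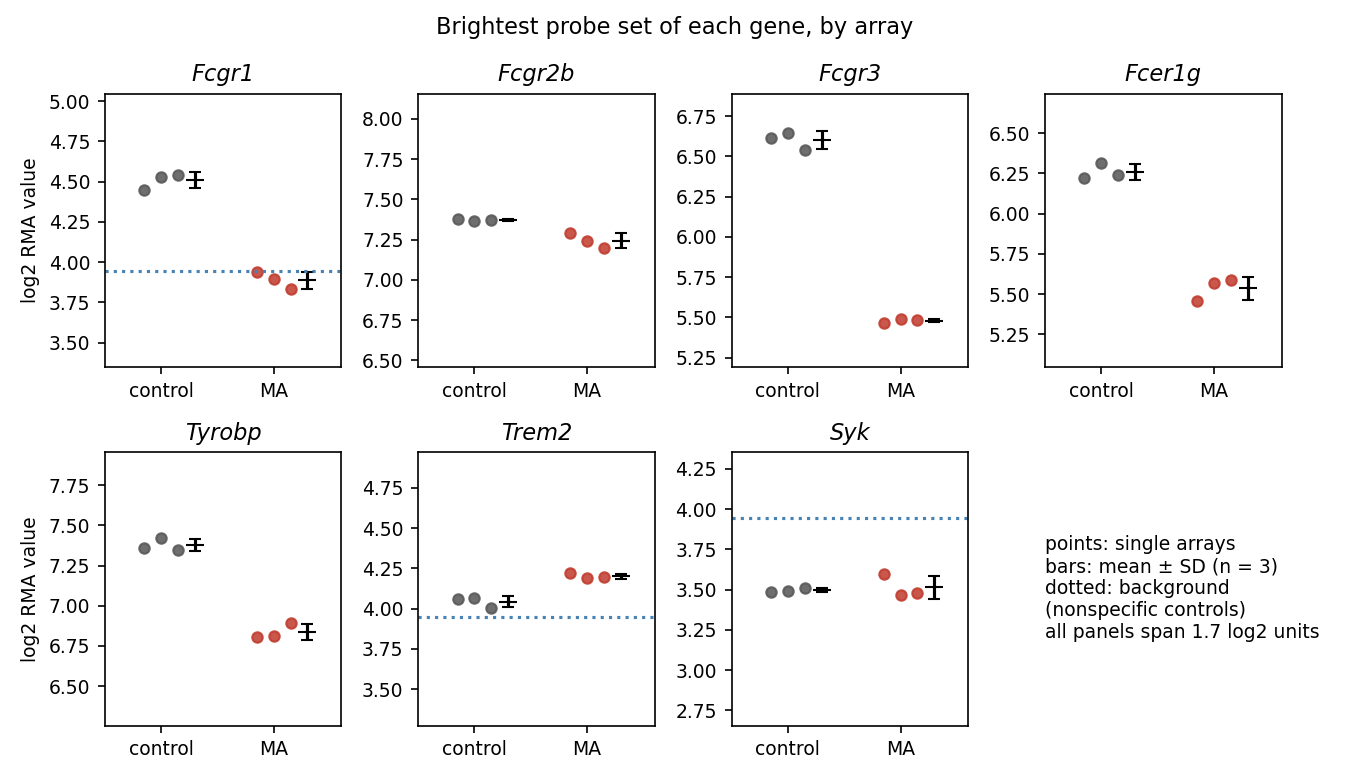
Log2 RMA values of the brightest probe set of each measured gene in the 3 control arrays (grey) and the 3 MA arrays (red), with the mean and SD of each group as black bars and the background of 3.95 dotted where it falls in the panel. The groups lie apart for every gene except Syk, whose 6 arrays all sit under the background.

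Fcgr3, the receptor CD16 for antibodies in immune complexes, fell most among the 7. Its only probe set read 5.47, 5.49 and 5.48 in the MA arrays and 6.62, 6.65 and 6.54 in the control arrays. Every MA array was more than 1 log2 unit under every control array. The difference was -1.12 (standard error 0.0302, 95% interval -1.19 to -1.05, adjusted p = 4.57e-08), a 2.18-fold fall. Of all probe sets 0.26% fell as far.

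Fcgr1, the high-affinity receptor CD64, read 3.94, 3.89 and 3.83 in the MA arrays and 4.45, 4.53 and 4.54 in the control arrays. The MA arrays thus sat at or under the background of 3.95 and the control arrays above it. The fitted difference was -0.62 (standard error 0.0353, adjusted p = 3.27e-06), and set against the background Fcgr1 was at least 1.48-fold lower. Its other probe set lay under the background in all 6 arrays, at 3.81 ± 0.0233 (SD, n = 3) and 3.79 ± 0.0416 (SD, n = 3), with a difference of 0.03 (adjusted p = 0.451). Averaged over both probe sets, the difference of Fcgr1 was -0.30.

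Fcgr2b, the inhibitory receptor, read 7.29, 7.24 and 7.20 in the MA arrays and 7.37, 7.36 and 7.37 in the control arrays. The MA arrays lay under the control arrays by a small step, a difference of -0.13 (standard error 0.0273, 95% interval -0.19 to -0.06, adjusted p = 0.00628), which is a 1.09-fold fall. Centred on the hybridization controls it was -0.30 (adjusted p = 2.2e-05), past 1.2-fold. That centring also moved the median difference of all probe sets to -0.17. As fitted, the interval of Fcgr2b does not reach that of Fcgr3. The other 3 probe sets of Fcgr2b did not move alike, with -0.30 (adjusted p = 4.44e-05), 0.06 (adjusted p = 0.0716) and -0.04 (adjusted p = 0.375). The first of them was the only 1 of the 4 past 1.2-fold. Fcgr2b has splice forms, and the names of these 4 probe sets mark that several transcripts of a gene, or similar sequences, can bind them.

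Fcer1g, the gamma chain shared by activating Fc receptors, read 5.45, 5.57 and 5.59 in the MA arrays and 6.22, 6.31 and 6.24 in the control arrays. It was lower in every MA array, with a difference of -0.72 (standard error 0.0404, 95% interval -0.81 to -0.63, adjusted p = 2.99e-06), a 1.65-fold fall. Tyrobp, the adaptor DAP12 of Trem2 and many other myeloid receptors, read 6.80, 6.81 and 6.89 in the MA arrays and 7.36, 7.42 and 7.35 in the control arrays. It fell by 0.54 (standard error 0.0322, 95% interval -0.61 to -0.47, adjusted p = 4.21e-06), a 1.45-fold fall. The intervals of the 2 adaptors do not overlap, and no test between genes was made.

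Trem2 did not fall as its adaptor did, but it lay too near the background to show such a fall. The control mean of its brighter probe set was 4.04, against the background of 3.95. The brighter probe set read 4.22, 4.19 and 4.19 in the MA arrays and 4.06, 4.07 and 4.01 in the control arrays, all just above the background. It rose by 0.16 (standard error 0.0248, adjusted p = 0.00114), which is a 1.12-fold rise and under the 0.17 of the hybridization controls, and centring the arrays on those controls turned it to -0.02. The other probe set differed by -0.06 (95% interval -0.13 to 0.01, adjusted p = 0.178), with the groups overlapping, and the average of both did not pass, at 0.05 (adjusted p = 0.0823). The 2 probe sets of Trem2 thus differed in sign. As for Fcgr2b, the name of the brighter probe set marks that several transcripts or similar sequences can bind it. The name of the other carries no such mark.

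Syk read 3.60, 3.47 and 3.48 in the MA arrays and 3.49, 3.49 and 3.51 in the control arrays, under the background throughout. Its difference was 0.02 (95% interval -0.06 to 0.10, adjusted p = 0.69). Centred on the hybridization controls it read -0.16 (adjusted p = 0.00499), still with both groups under the background.

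**Figure D2:**
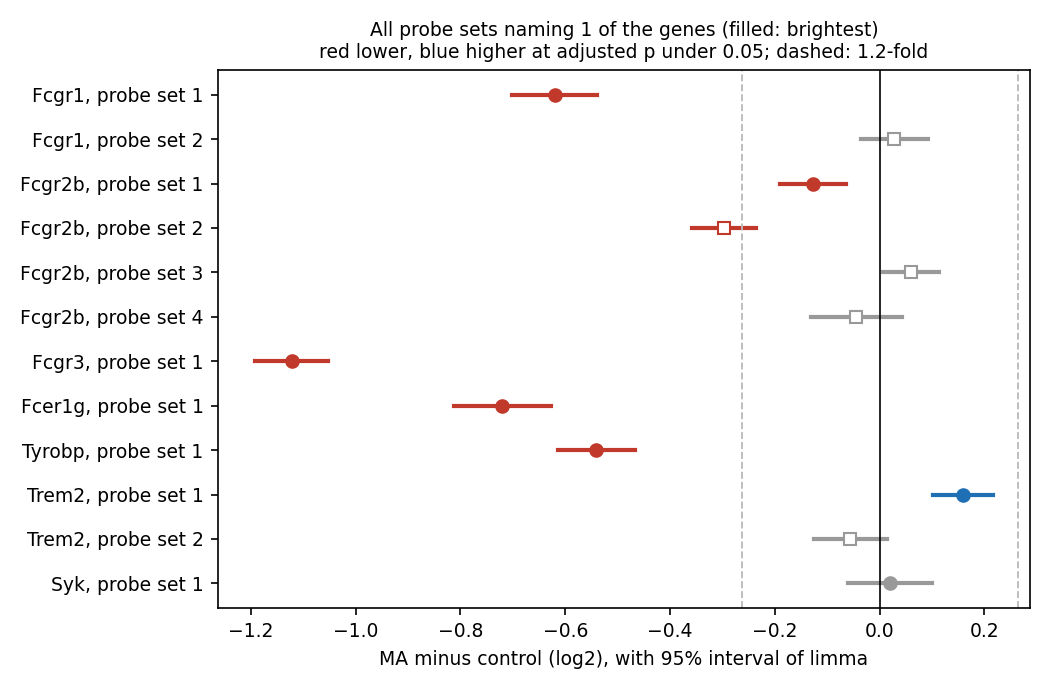
MA minus control (log2) for all 12 probe sets with the 95% interval of limma, filled for the brightest probe set of a gene, red where lower and blue where higher at an adjusted p under 0.05. Fcgr3 stands at -1.12 and Fcer1g, Fcgr1 and Tyrobp between -0.72 and -0.54. The intervals of Syk, of the second probe sets of Fcgr1 and Trem2 and of the Fcgr2b probe set at -0.04 cross 0. That of the Fcgr2b probe set at 0.06 lies above 0.

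Fcgr2b, Fcgr3 and Fcer1g are near neighbours on mouse chromosome 1, as the order of protein-coding genes in RefSeq (GRCm38.p6) gives it. Fcgr4, a further activating receptor that signals through Fcer1g, lies between Fcgr2b and Fcgr3. Its mean was 4.84 ± 0.0131 (SD, n = 3) in control muscle and 4.33 ± 0.046 (SD, n = 3) with MA, and it fell by 0.50 (adjusted p = 2.83e-06). None of the 8 measured genes that lie between Fcgr3 and Fcer1g or just beyond Fcer1g passed the test as lower. From 3 genes before Fcgr2b to 3 after Fcer1g, 13 of 17 genes were measured. Of the 13, 4 fell and 3 rose, against 23% and 24.7% of all genes. The 4 were Fcgr4 and the members Fcgr2b, Fcgr3 and Fcer1g, around which the stretch was drawn. Sdhc, a subunit of respiratory complex II, differed by 0.02 (adjusted p = 0.519), Tomm40l by -0.03 (adjusted p = 0.699), and Pcp4l1, Apoa2 and Adamts4 rose by 0.25, 0.10 and 0.32, the last of them under the background in both groups. Around Trem2 on chromosome 17 lie its relatives of the Treml group. Treml1 and Treml2 differed by 0.09 (adjusted p = 0.107) and 0.00 (adjusted p = 0.925), while Nfya and Oard1 on the far side fell by 0.39 and 0.30. B430306N03Rik, next to Trem2, rose by 0.23 (adjusted p = 0.00145), with its control group under the background. In this stretch of 7 genes 2 fell and 2 rose, against 23% and 24.7% of all genes. Trem2 itself, around which the stretch was drawn, was among the risers. These neighbours were chosen after the values of the Fc receptors were seen.

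**Figure D3:**
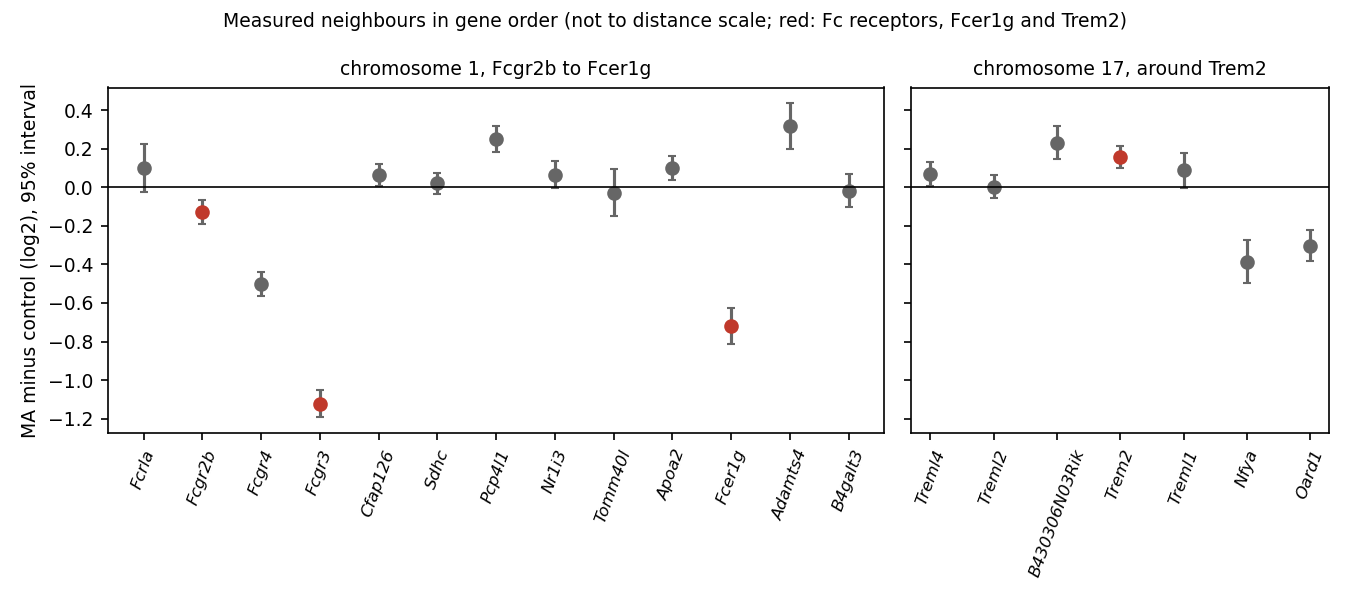
MA minus control (log2) with its 95% interval for the measured genes in chromosomal order, 13 from around Fcgr2b to Fcer1g and 7 around Trem2. On chromosome 1 the points under 0 past their interval are Fcgr4 and the members Fcgr2b, Fcgr3 and Fcer1g, around which the stretch was drawn.

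Promoters were searched for the sites of 2 regulators known in myeloid cells. PU.1, the product of Spi1, binds GAGGAA, and STAT factors, which interferons activate, bind TTCNNNGAA. RefSeq windows (GRCm38.p6) were found for 6 of the 8 genes and not for Tyrobp or Lyn, and the 250 bases before the start are given 5′ to 3′ for the 3 genes below that fell past 1.2-fold and, beside them, for Trem2. For Fcgr3 the first of its 2 windows is shown. Capitals mark matches to either motif on either strand.
Fcgr1 promoter, chr3:96293970-96294219, minus strand: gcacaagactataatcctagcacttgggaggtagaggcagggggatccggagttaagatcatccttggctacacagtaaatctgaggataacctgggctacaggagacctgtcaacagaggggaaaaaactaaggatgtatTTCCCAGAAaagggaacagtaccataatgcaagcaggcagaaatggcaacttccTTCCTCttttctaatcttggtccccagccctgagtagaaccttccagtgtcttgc
Fcgr3 promoter, chr1:171059404-171059653, minus strand: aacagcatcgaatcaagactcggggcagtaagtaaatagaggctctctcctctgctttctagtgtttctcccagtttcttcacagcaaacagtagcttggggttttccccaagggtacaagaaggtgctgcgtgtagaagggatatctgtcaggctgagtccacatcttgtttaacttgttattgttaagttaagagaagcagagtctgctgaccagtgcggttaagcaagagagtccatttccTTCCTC
Fcer1g promoter, chr1:171234350-171234599, minus strand: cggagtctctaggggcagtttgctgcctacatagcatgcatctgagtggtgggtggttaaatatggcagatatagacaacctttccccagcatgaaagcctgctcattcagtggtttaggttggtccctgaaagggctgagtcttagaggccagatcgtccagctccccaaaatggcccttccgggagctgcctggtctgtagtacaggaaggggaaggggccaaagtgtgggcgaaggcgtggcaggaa
Trem2 promoter, chr17:48346151-48346400, plus strand: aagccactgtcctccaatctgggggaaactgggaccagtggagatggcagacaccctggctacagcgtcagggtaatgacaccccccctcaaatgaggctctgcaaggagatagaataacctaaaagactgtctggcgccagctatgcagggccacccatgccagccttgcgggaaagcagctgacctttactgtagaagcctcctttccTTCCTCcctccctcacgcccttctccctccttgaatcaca

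Fcgr1 held TTCCCAGAA, a match to the STAT motif, 109 to 101 bases before its start, and of all 32851 windows 7.02% held such a match. The window of no other member did. A match to GAGGAA stood in the windows of Fcgr1, Fcgr3 and Trem2, where the strand shown reads TTCCTC, and in 1 of the 2 windows of Syk, where it reads GAGGAA. Of all windows 23.3% held such a match. Neither Fcer1g nor Fcgr2b held a match. The longer PU.1 form GAGGAAGT, in 2.44% of windows and overlapping the shorter one, and the interferon-stimulated response element, in 2.98%, were in no window of a member. These are matches of letters only. Spi1 itself read 3.92 ± 0.0195 (SD, n = 3) with MA and 4.12 ± 0.116 (SD, n = 3) in control muscle and fell (adjusted p = 0.0138), and with the MA group under the background its bound was at least 1.13-fold lower.

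Other genes listed around this signaling, named the chain below, were called lower more often than higher. This list too was drawn up with earlier results of these data known, and its counts are no independent support. The list also holds genes outside the signaling itself, such as ligands and sheddases of Trem2 and myeloid factors. Of 86 listed, 75 were measured, of which 45 fell, 8 rose and 22 did not pass, with a median of -0.18 beside 0.01 for all genes. Of all genes 23% fell and 24.7% rose, which also stands beside the counts of each group of the chain. Centred on the hybridization controls, 67 were lower and 2 higher, where 77.5% and 6.36% of all genes were. Past 1.2-fold, 28 were lower, against 6.87% of all genes, and 2 higher, against 5.92%. Of the 86, 3 are also in the list of macrophage markers, and without them 43 of 72 fell and 8 rose. The 72 still hold other genes of leukocytes and phagocytes, such as Ptprc and Cybb. This count therefore does not separate the chain from the number of such cells, whose part was not tested.

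Among 11 other receptors of the chain, 6 fell, 3 rose and 2 did not pass, with a median of -0.18. Fcgrt, the neonatal Fc receptor that recycles antibodies in endothelium and macrophages, fell by 0.18, and the lectins Clec7a, which binds fungal glucans, and Clec4n fell by 0.29 and 0.25. Trem1, which like Trem2 uses Tyrobp, rose by 0.17, no more than the 0.17 by which the hybridization controls read higher in MA arrays.

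Among 18 kinases and scaffolds, 10 fell, 2 rose and 6 did not pass, with a median of -0.12. Fyb, an adaptor that links receptor signals to the actin skeleton and integrins, read 6.51, 6.51 and 6.56 in the MA arrays and 7.71, 7.76 and 7.72 in the control arrays, with every MA array lower, a 2.30-fold fall (adjusted p = 1.11e-08). The kinase Tec fell by 0.33 and Grb2, an adaptor of many receptors in most cells, by 0.20, while Gab2 differed by 0.05 (adjusted p = 0.138).

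Of 19 downstream enzymes and effectors, 10 fell, 1 rose and 8 did not pass, with a median of -0.17. Cyba, a membrane subunit of the phagocyte oxidase, fell by 0.67, Coro1a, an actin-binding protein of leukocytes, by 0.68 and Rac2, the GTPase of leukocytes, by 0.41. Rac1, its relative found in most cells, differed by -0.05 (adjusted p = 0.0953). The partner of Cyba in the oxidase, Cybb, named after its value was seen, fell by 1.23, from 6.06 ± 0.00862 (SD, n = 3) in the control group to 4.84 ± 0.0343 (SD, n = 3).

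Of 17 inhibitory receptors and phosphatases, 10 fell, 1 rose and 6 did not pass, with a median of -0.15. Ptprc, the phosphatase CD45 found on all leukocytes, read 6.07, 6.11 and 6.08 in the MA arrays and 7.43, 7.41 and 7.41 in the control arrays. It was lower in every MA array, a 2.52-fold fall (adjusted p = 3.94e-09). Ptpn11, the phosphatase SHP-2 of most cells, fell by 0.16, Clec4a2, a lectin with an ITIM, by 0.27, and Sirpa, which restrains uptake of cells with CD47, differed by -0.02 (adjusted p = 0.622). Lilrb4a, an ITIM receptor of myeloid cells named after its value was seen, rose by 0.97 and was the only riser of this group.

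Of 10 genes of Trem2 ligands, sheddases and myeloid factors, 9 fell and 1 rose, with a median of -0.45. Apoe, an apolipoprotein that Trem2 binds and that macrophages make, read 7.66, 7.71 and 7.68 in the MA arrays and 8.81, 8.80 and 8.77 in the control arrays. It was lower in every MA array, a 2.16-fold fall (adjusted p = 1.15e-08). Clu, another lipoprotein ligand, rose by 0.65 (adjusted p = 2.14e-06). The proteases Adam10 and Adam17, which cut Trem2 from the cell surface, fell by 0.32 and 0.22. The 2 genes of the whole list that rose past 1.2-fold were Clu and Lilrb4a.

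**Figure D4:**
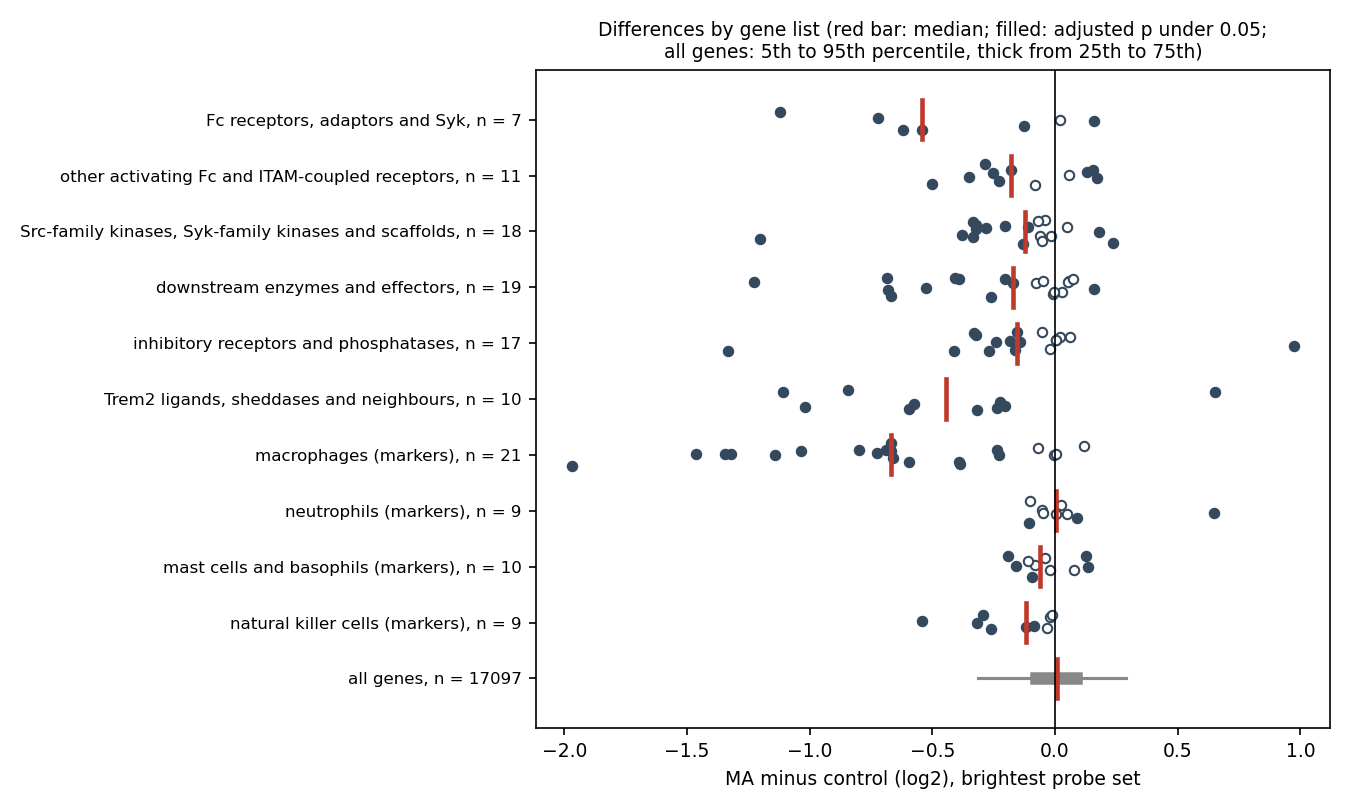
MA minus control (log2) for each measured gene of the Fc receptor and ITAM lists and of 4 lists of cell type markers, each gene being 1 point, filled if it passed the test, and red bars marking medians. The medians are -0.54 for the 7 genes, -0.67 for macrophage markers and 0.00 for neutrophil markers, and the thin bottom line spans the central range of all 17097 genes.

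Markers of macrophages moved with these genes. Of 21 measured, 17 fell and 4 did not pass, with a median of -0.67, and 1, Itgam, was under the background in both groups. The sum of their linear values ranged from 2619 to 2690 in the MA arrays and from 4465 to 4538 in the control arrays. The brightest, Lyz2 and Ctss, fell by 0.69 and 0.80. In bulk RNA, fewer macrophages and less of these transcripts per macrophage cannot be told apart, and the part of macrophage number in the falls of Fcgr3, Fcgr1, Fcer1g and Tyrobp was not tested. The 4 that did not pass were Itgam, Cx3cr1, Cd68, which differed by 0.12 (adjusted p = 0.198), and Ccr2, which differed by -0.07 (adjusted p = 0.121).

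Other cells that carry Fcer1g, Tyrobp or Fc receptors were followed by their markers as well, and the counts stand beside the 23% of all genes that fell and the 24.7% that rose. Of 9 neutrophil markers 1 fell and 2 rose, with a median of 0.00, 3 under the background in both groups and summed values of 254.8 to 258.4 in the MA arrays and 214.2 to 224 in the control arrays. Of these, S100a8, the brightest, rose by 0.65 and carried the higher sum of the MA arrays. Its partner S100a9 was the 1 that fell, under the background in both groups. Of 10 markers of mast cells and basophils 3 fell and 2 rose, with a median of -0.06, and 6, among them Fcer1a, the chain that binds antibodies on these cells, were under the background in both groups. Of 9 markers of natural killer cells 6 fell and 0 rose, with a median of -0.12, and Ncr1 and Klrd1 were under the background. Of 9 B cell markers 1 fell and 2 rose, with a median of 0.02, of 9 T cell markers 3 fell and 1 rose, with a median of -0.02, and of 6 dendritic cell markers 1 fell. Endothelial markers, of a cell type that carries Fcgrt, fell in 10 of 12 cases and rose in 1, with a median of -0.24. Of 12 fiber markers 7 rose and 1 fell, with a median of 0.11, under the 0.17 of the hybridization controls. Of 9 fibroblast markers 6 rose and 1 fell. Of 4 red blood cell markers 1 fell. The parts of these cell types in the differences above were not tested.

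The genes whose values over the 6 arrays were most like those of Fcer1g, out of 3473 compared, were Fam98b, Cpt1b and Hrc, with Pearson's r of 0.999 each and falls of 0.18, 0.23 and 0.12. With 2 groups of 3 arrays, such an r mostly follows the step between the groups.

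**Figure D5:**
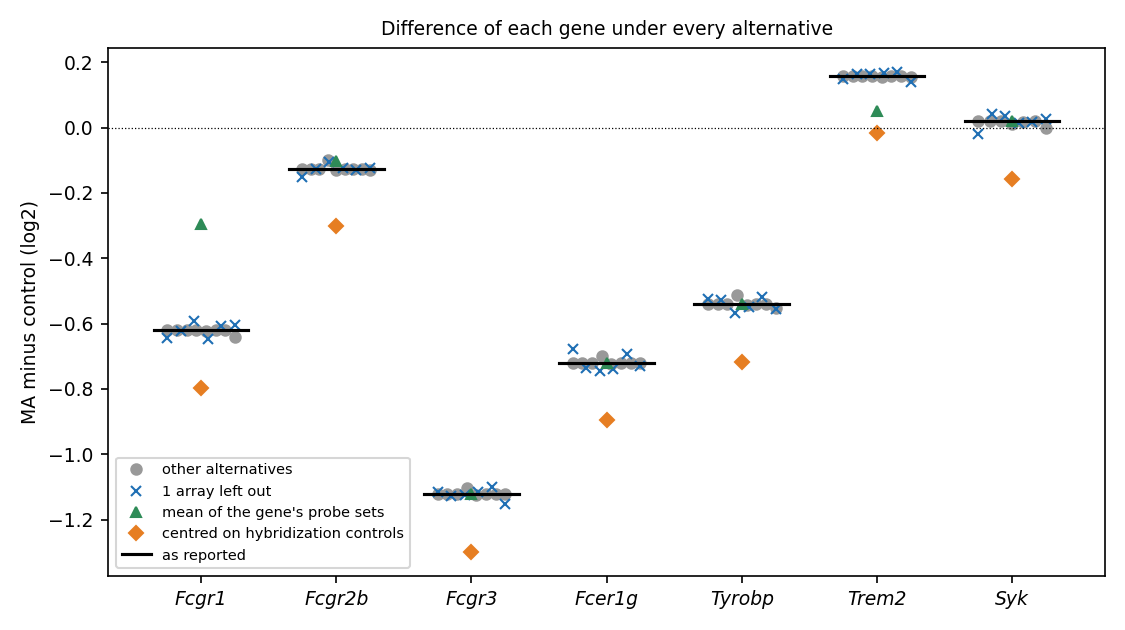
MA minus control (log2) of each gene as analysed (black line) and under the alternatives, with crosses where 1 array was left out, triangles for the average of a gene's probe sets and diamonds for centring on the hybridization controls. Fcgr3, Fcer1g, Fcgr1 and Tyrobp stay under 0 under each of them, and Trem2 lies between -0.02 and 0.17.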

How the data were processed

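Gastrocnemius RNA of 6 samples was measured on Affymetrix mouse 3' expression arrays. RMA was run by the authors in Expression Console (version not given in the sources used here), and they deposited 1 log2 value per probe set and array, corrected for background, quantile-normalized and summarized. A human array is named in the series' design text, while the probe sets are those of the mouse array, and the sources differ on the amount of input RNA.

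Of 45141 rows, 104 array controls were set aside, and the 45037 others were fitted in R 4.3.3 with limma 3.58.1 (lmFit and eBayes, no covariate) without further normalization. Of these, 28898 named 1 gene, 551 several and 15588 none in the platform annotation. The number of arrays limits the precision. The steps were tested on simulated data.

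The genes named were the 8 members, the 4 brightest genes of each pathway group, the 2 brightest of each marker list (given here for macrophages, with counts for the others) and the 3 most like Fcer1g, with others marked as chosen after their values were seen. The likeness to Lyn could not be computed. The members and lists were chosen with earlier results of these data known. The rule for likeness used the highest nonspecific control, at 7.24, and so only genes above it. Alternatives were the one-way analysis of variance of the methods, other moderation, scaling, filters, array weights, a replicate block, the mean of a gene's probe sets, stricter folds and leaving out each array.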

Additional observations from a re-analysis of the deposited data

How the results depend on the processing

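Fcgr3, Fcgr1, Fcer1g, Tyrobp and Fcgr2b were lower at an adjusted p under 0.05 under every other fit in which they were tested, with Fcgr3 between -1.30 and -1.10, Fcer1g between -0.90 and -0.68, Tyrobp between -0.72 and -0.51, Fcgr1 between -0.80 and -0.30 and Fcgr2b between -0.30 and -0.10. The lower bound of each range came from centring on the hybridization controls, which also turned Trem2 to -0.017 and Syk to -0.16 and left 0 of the 7 genes and 2 pathway genes higher. The filter at the control set of G and C only kept genes above 7.24, and 1 of the 7 genes, Fcgr2b, then counted as lower, 0 as higher and 0 as past the thresholds of the methods, with 7 pathway genes lower and 1 higher, since most genes were no longer tested. A filter at 3.95, chosen after seeing the data, no longer tested Syk and left 5 of the 7 lower and 1 higher. With the mean of the probe sets 0 of the 7 were higher. With an adjusted p and a fold over 1.2, 4 of the 7 were lower, without Fcgr2b, 0 were higher and 28 pathway genes were lower and 2 higher. The one-way analysis of variance left 4 pathway genes higher, and the cause was not tested. Leaving out each array in turn gave 5 to 9 pathway genes higher and 42 to 44 lower, with 5 at the low end without MA replicate 2, and 5 of the 7 genes lower and 1 higher each time.

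Same-numbered arrays deviated together with r of 0.19, 0.04 and 0.14, so the numbers were not taken to pair the arrays. With the replicate number as a block, 5 of the 7 genes were lower and 1 higher, and 45 pathway genes were lower and 8 higher. Shares of all genes were computed only for the fit as analysed and for centring on the hybridization controls. The counts at the other settings of this section therefore have no share of all genes beside them. Probe sets near the background, such as those of Syk, Fcgr1 and Trem2, limit what these arrays can show.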
